A study of Mus musculus with 28 samples.

Results

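The 9 genes described here encode mouse BH3-only proteins (Bbc3, Pmaip1, Bid, Bcl2l11, Bad, Bmf and Hrk) and the effectors of mitochondrial apoptosis (Bax and Bak1). They were taken by gene symbol from a count table of 24062 genes. All 9 passed the filter on low counts, which left 16369 genes for testing. The level of Bid was lower in 3xTg than in WT hippocampus over all treatments, and so was that of Bcl2l11, while the other 7 members did not pass that test. That comparison was added after the data were seen, and 14.4% of all genes tested passed it. With the inhibitor NAVI, no member passed by edgeR within either genotype, against 0% of all genes. DESeq2 and limma-voom each called 1 member with NAVI in 3xTg, Bax. The members' differences with NAVI in 3xTg hippocampus largely followed the GC content of their transcripts (Spearman's rho 0.929, against 0.628 across 15557 genes). After each library's GC trend was taken out, the rho of the members was 0.82.

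Poly(A) RNA of hippocampus from female mice was sequenced as paired reads in a study of senescent cell elimination in 3xTg-AD mice. The 3xTg-AD line (here 3xTg) is a model of Alzheimer's disease with human APP and tau transgenes driven by a Thy1 cassette, and the mice labelled BL6/129 served as wild type (WT). The 28 libraries form 7 groups of 4: 3xTg with NAVI, 3xTg with DQ, 3xTg with the vehicle labelled VehN, 3xTg with the vehicle labelled VehD, WT with NAVI, WT with DQ and WT with the single vehicle labelled Veh. NAVI stands for navitoclax (ABT263), which binds the anti-apoptotic proteins BCL-2, BCL-XL and BCL-W, and DQ for dasatinib with quercetin. All groups were female, and the labels used here state no age, dose or schedule. The labels also do not say that each library came from a different animal, so p-values measure the spread between libraries.

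In mitochondrial apoptosis, BH3-only proteins act as the sensors of damage: each carries a short BH3 helix that fits into a groove of BCL-2 type survival proteins. Some of them, BIM (Bcl2l11), BID (Bid) and PUMA (Bbc3), can also engage BAX and BAK directly, which then open the outer mitochondrial membrane and release cytochrome c. Navitoclax imitates the BH3 helix of BAD. In the adult brain, BAX is the main effector of neurons, and HRK is a BH3-only protein with mostly neuronal expression.

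The part of the gene that carries this shared function is the BH3 core, and it is shown because it is the one stretch of sequence that links BH3-only members and effectors. A leucine codon, 3 codons of any residue, a codon for glycine, alanine or serine and an aspartate codon were searched for in the longest annotated coding sequence of each gene. This pattern occurred once in each of the 8 members printed here and was found at 2 places in Pmaip1, which is not printed. Capitals mark the 18 bases of the pattern, each with 12 bases on either side, read 5′ to 3′ on the coding strand of the GRCm38 (mm10) annotation.
Bbc3: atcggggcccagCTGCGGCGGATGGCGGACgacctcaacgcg
Bid: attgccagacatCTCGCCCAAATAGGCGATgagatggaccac
Bcl2l11: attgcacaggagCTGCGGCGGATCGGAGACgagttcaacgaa
Bad: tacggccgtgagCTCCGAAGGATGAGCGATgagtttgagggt
Bmf: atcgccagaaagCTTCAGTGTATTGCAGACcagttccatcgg
Hrk: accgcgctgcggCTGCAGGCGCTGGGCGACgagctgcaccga
Bax: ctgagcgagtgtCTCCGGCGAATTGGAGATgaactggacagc
Bak1: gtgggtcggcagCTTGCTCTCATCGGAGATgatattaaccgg
The core of Bbc3 lies at chr7:16313773-16313790 on the plus strand and starts at codon 141 of 193. That of Bid lies at chr6:120897298-120897315 on the minus strand, at codon 90 of 195, and that of Bcl2l11 at chr2:128147150-128147167 on the plus strand, at codon 150 of 196. The core of Bad is at chr19:6950792-6950809 (plus strand), that of Bmf at chr2:118545109-118545126 (minus strand) and that of Hrk at chr5:118169891-118169908 (plus strand). In the effectors it is at chr7:45466006-45466023 for Bax and at chr17:27022540-27022557 for Bak1, both on the minus strand. All of these positions are coding exon.

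The genes differed widely in level when CPM values (counts scaled to a fixed library total, with TMM factors) were divided by the length of annotated exon. Hrk, the neuronal BH3-only gene, had the highest level per length, at 16.4 ± 2.24 CPM per kb (SD, n = 28 libraries), and Bax, the effector, followed at 11.4 ± 2.00 CPM per kb. Hrk was above Bax in 25 of 28 libraries, and Bax was above the next gene in all 28. Bad averaged 4.10 ± 0.808, Bak1 3.27 ± 0.397 and Bid 3.21 ± 0.448 CPM per kb. Bad stood above Bak1 in 27 of 28 libraries, but Bak1 stood above Bid in only 12 of 28, so those neighbours did not differ beyond their spread. The other BH3-only genes were lower, with Pmaip1 at 1.07 ± 0.342, Bcl2l11 at 0.943 ± 0.124, Bmf at 0.846 ± 0.154 and Bbc3 at 0.643 ± 0.196 CPM per kb. Each of Pmaip1, Bcl2l11 and Bmf was above the next gene in 18, 19 and 22 of 28 libraries. Bax thus had a level per length above all 6 of the BH3-only genes other than Hrk, and Bak1 a lower one than Bax. The length counts all annotated exons of a gene, 8.029 kb for Bcl2l11 and 2.732 kb for Pmaip1. Undivided, the median was 7.39 CPM for Bcl2l11 and 2.71 CPM for Pmaip1, so their order depended on the length used.

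**Figure D1:**
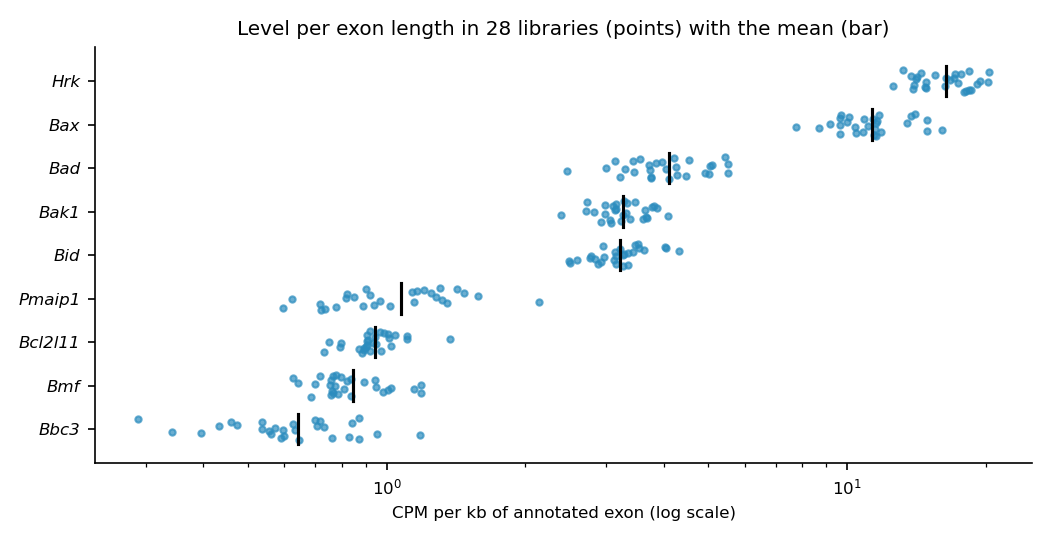
Level of each of the 9 genes per exon length (CPM per kb of annotated exon, log axis). Each point is 1 of 28 libraries and the bar is their mean. Hrk and Bax lie highest, at 16.4 and 11.4 CPM per kb, and Bbc3 lowest, at 0.643 CPM per kb.

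Read depth differed between the genes. Bbc3 had 28 to 97 reads per library and Pmaip1 56 to 258, and their levels varied most between libraries (coefficients of variation of 30.4% and 31.9%). The variation beyond counting noise estimated by edgeR was 24.0% for Bbc3 and 23.4% for Pmaip1, and 10.7% to 16.5% for the other members. Hrk had 2592 to 5691 reads, Bax 524 to 1064 and Bid 289 to 630, with coefficients of variation of 13.6%, 17.6% and 13.9%. Exons of some members overlap those of other genes: 628 bases of Bid with Bcl2l13, 524 of Bad with Gpr137 and 437 of Bak1 with Ggnbp1 on the opposite strand, and 192 of Bax with Gm45808 on the same strand. The libraries are stranded, but the sources used here do not state the strand setting of the counting, so reads of the overlaps could belong to either gene.

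Libraries had 32080861 to 54019519 counted reads. App, which stands for the transgene load, was 1.88-fold and Thy1 2.86-fold higher in 3xTg than in WT hippocampus with vehicle (edgeR's quasi-likelihood test, adjusted p = 1.73e-08 and 9.62e-12), as the labels say. Markers of all 8 cell types or regions checked were detected, and those of hippocampal neurons summed to 782 to 1185 CPM over all libraries. Some libraries also held markers of neighbouring tissue. Choroid plexus epithelium markers summed to between 70.7 and 5949 CPM and thalamus neuron markers to between 158 and 938 CPM. In addition, each library showed a trend of counts with transcript GC content, between -0.34 and 0.28 log2 units per 10% of GC, which is given beside the results it moves with.

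The effect of the 3xTg genotype was examined under NAVI, under DQ and under vehicle (VehN and VehD, as 1 mean, against Veh), and as the mean of these 3 differences, a comparison added after the data were seen. In the mean over all treatments, 2 of 9 members passed at an adjusted p under 0.05, both lower in 3xTg, against 14.4% of all genes tested (1207 higher and 1155 lower). The members' median log2 difference was -0.05 and that of all genes was -0.00135. DESeq2 and limma-voom also called 2 members. In bulk tissue, fewer cells of a type and less RNA per cell cannot be told apart, and the groups of each setting also enter the drug comparisons below.

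Bid, which links death receptors to mitochondria when caspase-8 cleaves it, was lower in 3xTg. The gene lies on the minus strand at chr6:120891930-120916853. With NAVI it had 8.89, 10.4, 8.84 and 11.1 CPM in 3xTg, against 12.8, 11.4, 12.5 and 14.4 CPM in WT. With DQ the values were 11.6, 11.9, 10.2 and 11.2 CPM in 3xTg and 11.9, 12.2, 11.1 and 15.3 CPM in WT. With vehicle, 3xTg libraries had 9.18, 10.1, 9.81 and 10.5 CPM (VehN) and 9.88, 11.2, 11.6 and 11.6 CPM (VehD), and WT libraries 14.3, 10.5, 12.3 and 12.5 CPM. The groups did not overlap with NAVI and did so with DQ and vehicle. Here and below, a lack of overlap is only a description, since the share of all genes without overlap is not given. All 16 libraries of 3xTg lay below the WT median of 12.4 CPM, 8 of them lay below the lowest WT library, and 9 of 12 WT libraries lay above the highest 3xTg library. Over all treatments Bid fell by 0.27 on the log2 scale (SE 0.0584, 1.20-fold lower in 3xTg, edgeR adjusted p = 0.00235). The call held when any 1 library was left out, with adjusted p between 0.000812 and 0.00576, and under all 11 other settings. Bcl2l13, whose exons overlap Bid, had a log2 difference of -0.03 (SE 0.0268, adjusted p = 0.506).

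Bcl2l11, which encodes the activator BIM, was also lower in 3xTg over all treatments. It lies on the plus strand at chr2:128126038-128162547. With NAVI the 3xTg libraries had 7.16, 6.98, 7.19 and 6.34 CPM and the WT libraries 7.59, 8.91, 8.37 and 7.28 CPM. With DQ the 3xTg libraries had 7.11, 5.87, 7.82 and 7.39 CPM and the WT libraries 7.33, 8.89, 11.0 and 8.14 CPM. With vehicle the 3xTg libraries had 7.23, 8.21, 7.29 and 7.62 CPM (VehN) and 7.50, 6.38, 6.01 and 7.27 CPM (VehD), and the WT libraries 8.07, 7.91, 7.78 and 7.38 CPM. The groups were apart with NAVI by a narrow gap and overlapped with DQ and vehicle. In 3xTg, 15 of 16 libraries lay below the WT median of 7.99 CPM, and all 12 WT libraries lay above the 3xTg median of 7.21 CPM. The log2 difference over all treatments was -0.22 (SE 0.0603, 1.17-fold lower, edgeR adjusted p = 0.013), and with 1 library left out the adjusted p was between 0.00415 and 0.0269. After each library's GC trend was taken out, Bid was at -0.26 (adjusted p = 0.00385) and Bcl2l11 at -0.23 (0.00539), so both differences were as large without that trend. Bcl2l11 moved with other markers: its r with the endothelium score was 0.511 (rho = 0.433, permutation p = 0.00615, adjusted p = 0.0277, 0.489 without the 2 farthest libraries), and within groups it was 0.333. Of the endothelium markers, 4 of 10 were lower in 3xTg over all treatments and 0 were higher, with a median log2 difference of -0.26. With the microglia score, Bcl2l11 had a rho of -0.568 (adjusted permutation p = 0.0168) and an r of -0.384 (adjusted permutation p = 0.125), and within groups r was 0.375. What part these markers have in the Bcl2l11 difference was not tested.

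Pmaip1, which encodes NOXA, a partner of MCL-1, had a log2 difference of -0.36 over all treatments (SE 0.136, adjusted p = 0.0829) and did not pass. With NAVI, Pmaip1 stood at 2.43, 2.78, 2.57 and 1.96 CPM in 3xTg, against 4.02, 3.41, 3.10 and 3.19 CPM in WT, with no overlap. With DQ it stood at 1.97, 2.01, 1.63 and 2.12 CPM in 3xTg, against 2.32, 4.32, 2.51 and 2.25 CPM in WT, again with no overlap. As for Bid, the lack of overlap is only a description. With vehicle the 3xTg libraries spanned 1.70 to 5.85 CPM and enclosed the WT range of 2.46 to 3.89 CPM. Pmaip1 passed once the GC trend was removed (-0.40, adjusted p = 0.0431) and with the scores of thalamus and choroid plexus markers as covariates (-0.39, adjusted p = 0.0404). Bmf had a difference of 0.18 (SE 0.0888, adjusted p = 0.189), and Bbc3, Hrk, Bad, Bax and Bak1 lay between -0.08 and 0.17 (adjusted p of 0.522 or more).

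**Figure D2:**
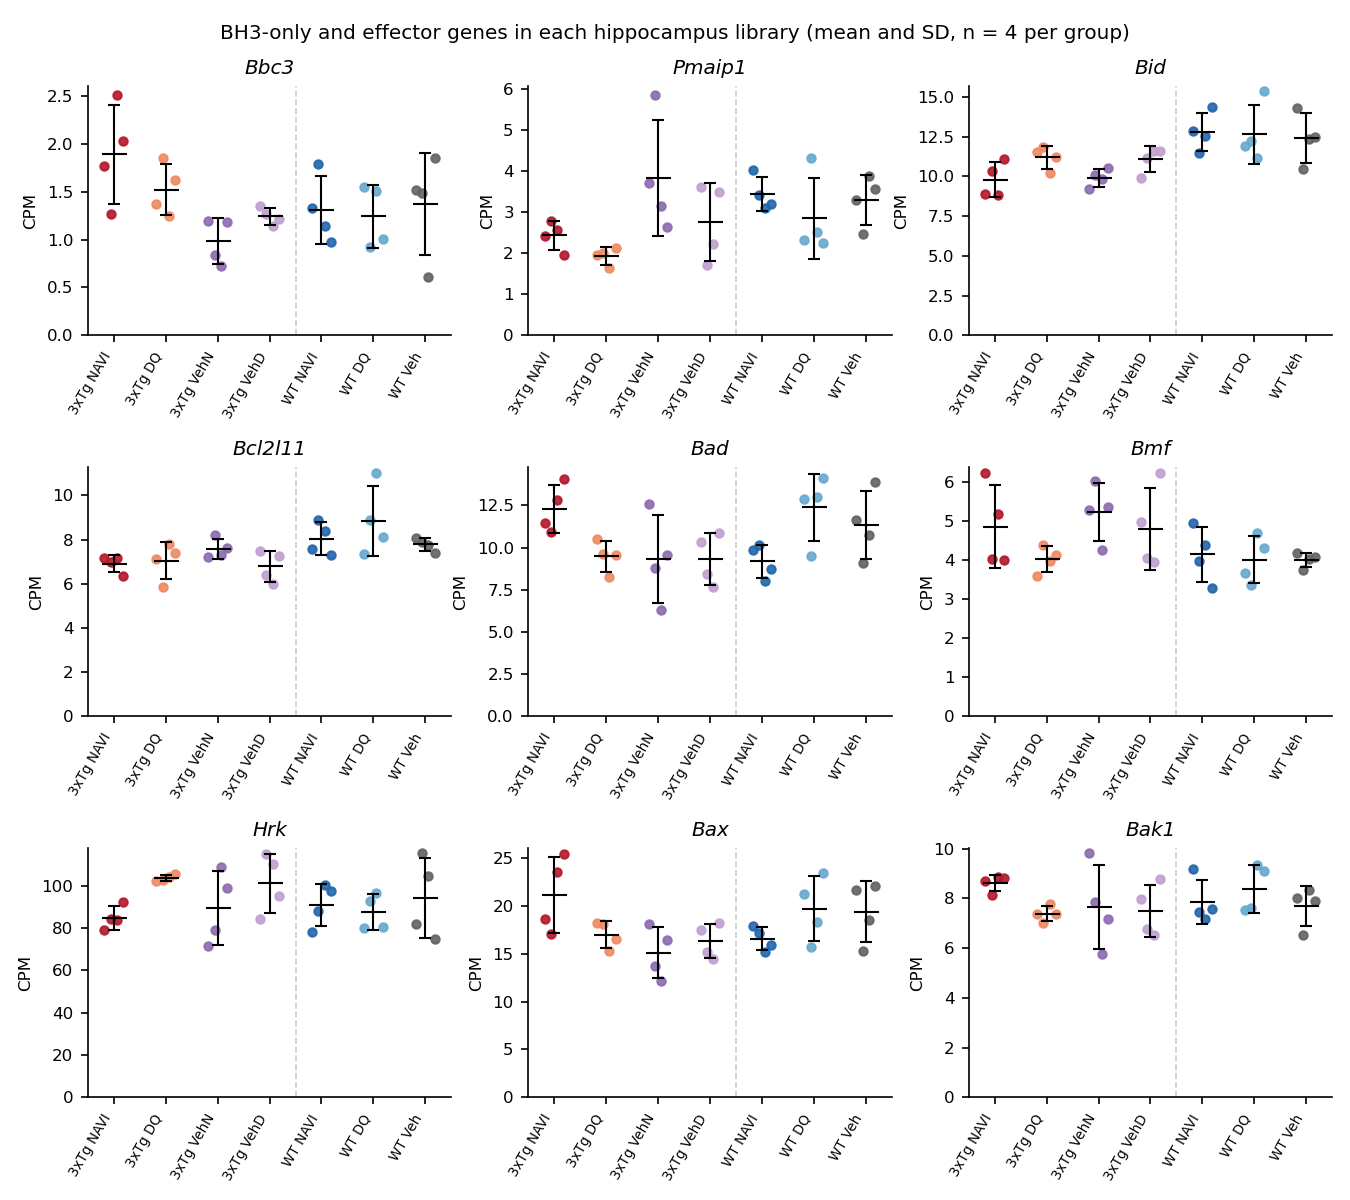
CPM of each gene (vertical axes from 0) in the 28 libraries, by group. Points are libraries, and the line and bar are the mean and SD of 4. The 3xTg groups stand left of the dashed line and the WT groups right of it. All 16 points of 3xTg for Bid lie below the WT median of 12.4 CPM.

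In the single settings, fewer members passed. With NAVI, 1 of 9 members was called between genotypes, against 5.98% of all genes. This was Bid, with a log2 difference of -0.38 (SE 0.106, 1.30-fold lower in 3xTg, edgeR adjusted p = 0.0319), and DESeq2 and limma-voom also called it (adjusted p = 0.012 and 0.0204). The Bid call was lost with the libraries of that comparison alone in the fit (adjusted p = 0.0856) and when 3xTg NAVI replicate 1 or 3 or WT NAVI replicate 1, 3 or 4 was left out, where the adjusted p reached at most 0.118. With DQ, 0 of 9 members passed by edgeR and by DESeq2, against 3.05% of all genes, while 3 had an unadjusted p under 0.05, against 17.4% of all genes, and limma-voom called 1, Bad, at -0.44 (adjusted p = 0.0313). With vehicle, 0 of 9 passed by edgeR, DESeq2 and limma-voom, against 13.1% of all genes, and 3 had an unadjusted p under 0.05, against 32.3% of all genes. These 3 were Bid (-0.24, adjusted p = 0.0705), Bax (-0.30, 0.0932) and Bmf (0.32, 0.116). With DQ, Bcl2l11 was at -0.33 (SE 0.109, adjusted p = 0.112).

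The estimated differences of Bad, Bax and Bbc3 lay on both sides of 0 in the 3 settings, and so did those of Bak1 and Hrk. Bad, the BH3-only protein held by 14-3-3 proteins when phosphorylated, was at 0.42 with NAVI, -0.39 with DQ and -0.28 with vehicle (3xTg minus WT, SE 0.166, 0.166 and 0.143). Bax was at 0.35, -0.21 and -0.30 in the same settings. Bbc3, a p53 target gene, was at 0.52, 0.28 and -0.30. None of these 9 values passed the test. After each library's GC trend was taken out, Bax was at 0.01 with NAVI, 0.03 with DQ and -0.004 with vehicle, Bbc3 at 0.15, 0.54 and 0.03, and Bad at 0.21, -0.23 and -0.13, and none of these passed either. For Bid, the difference between genotypes was not shown to depend on treatment. Its NAVI effect in 3xTg minus that in WT was -0.06 (SE 0.150, 95% interval -0.37 to 0.25). The same difference for DQ was -0.01 (SE 0.150, -0.32 to 0.30). Both intervals hold values as large as the genotype difference of Bid over all treatments, -0.27.

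**Figure D3:**
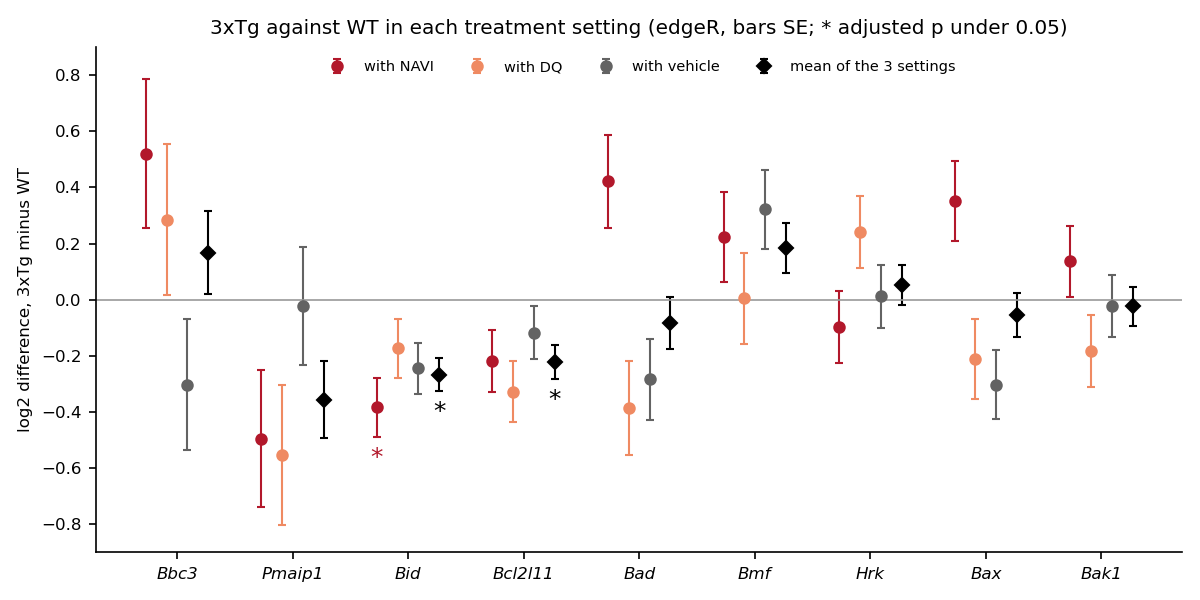
Log2 difference of each gene, 3xTg minus WT, under NAVI, DQ and vehicle, and the mean of the 3 settings (diamonds), with SE bars from edgeR. Asterisks mark an adjusted p under 0.05, which Bid reached with NAVI and in the mean and Bcl2l11 in the mean. Bad and Bax lie above 0 with NAVI and below 0 in the other settings.

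NAVI in 3xTg hippocampus was compared with VehN. No member passed by edgeR, against 0% of all genes, while 4 of 9 members and 4759 of 16369 genes (29.1%) had an unadjusted p under 0.05. DESeq2 and limma-voom each called 1 member, Bax (adjusted p = 0.018 and 0.0481), and over the whole table they called 2000 of 12559 and 826 of 16369 genes. Bbc3 had 1.76, 1.27, 2.51 and 2.03 CPM with NAVI, against 1.19, 0.840, 0.727 and 1.18 CPM with VehN. The groups did not overlap, which is only a description. The log2 difference of Bbc3 was 0.94 (SE 0.272, 1.92-fold, edgeR adjusted p = 0.0603). Bax had 18.7, 17.0, 23.5 and 25.4 CPM with NAVI, against 18.1, 13.7, 12.2 and 16.4 CPM with VehN. The Bax groups overlapped at the highest VehN library, and the difference was 0.48 (SE 0.143, adjusted p = 0.0605).

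Pmaip1 lay on the other side of 0. It had 2.43, 2.78, 2.57 and 1.96 CPM with NAVI, against 3.69, 5.85, 3.14 and 2.64 CPM with VehN, and the log2 difference was -0.65 (SE 0.245, adjusted p = 0.0946). Without 3xTg VehN replicate 2 it was -0.38. Bad had 11.4, 10.9, 12.8 and 14.1 CPM with NAVI, against 12.6, 8.80, 6.29 and 9.54 CPM with VehN, at 0.40 (SE 0.166, adjusted p = 0.119). The groups of both genes overlapped. The effector Bak1 was at 0.17 (SE 0.127) and the BH3-only genes Bid, Bcl2l11, Bmf and Hrk lay between -0.13 and -0.01 (adjusted p of 0.416 or more). The median over the 9 members was -0.01, as was that of all genes.

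These differences followed transcript GC content. The GC content of the longest transcript was 65.2% for Bbc3, 63.5% for Bax, 57.1% for Bad and for Bak1, 53.7% for Bmf, 51.4% for Hrk, 51.3% for Bid, 48.0% for Bcl2l11 and 42.1% for Pmaip1. Across the 9 genes, the order of the NAVI difference and that of GC content had a Spearman's rho of 0.929, and of 0.82 after each library's GC trend was taken out, given as a description of genes that share the same libraries. Across 15557 genes the same rho was 0.628. The GC trend was at 0.07, -0.05, 0.26 and 0.28 log2 units per 10% of GC in the 4 NAVI libraries of 3xTg, against 0.11, -0.16, -0.34 and -0.11 in the VehN libraries. With each library's GC trend removed, the difference of Bax was 0.07 (SE 0.0666, adjusted p = 0.646), that of Bbc3 0.49 (SE 0.238, 0.349), that of Bad 0.21 (SE 0.0941, 0.303) and that of Pmaip1 -0.47 (SE 0.243, 0.379). The median absolute difference of the members was 0.17 with the trend in place and 0.10 with it removed. Tissue markers also varied between these libraries. Of the choroid plexus markers 0 of 10 were higher with NAVI (median log2 difference -1.14), and of the thalamus markers 0 of 10 (median -0.85). In both lists 0 of 10 were called, against 0% of all genes. Choroid plexus markers summed to 83.8 to 3787 CPM with NAVI and to 2363 to 5949 CPM with VehN. Thalamus markers summed to 164 to 543 CPM with NAVI and 184 to 938 CPM with VehN. With both marker scores as covariates, Bax was at 0.55 and Bbc3 at 1.06 (adjusted p = 0.0488 for each). What part these markers or the GC trend had in the differences was not tested further.

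**Figure D4:**
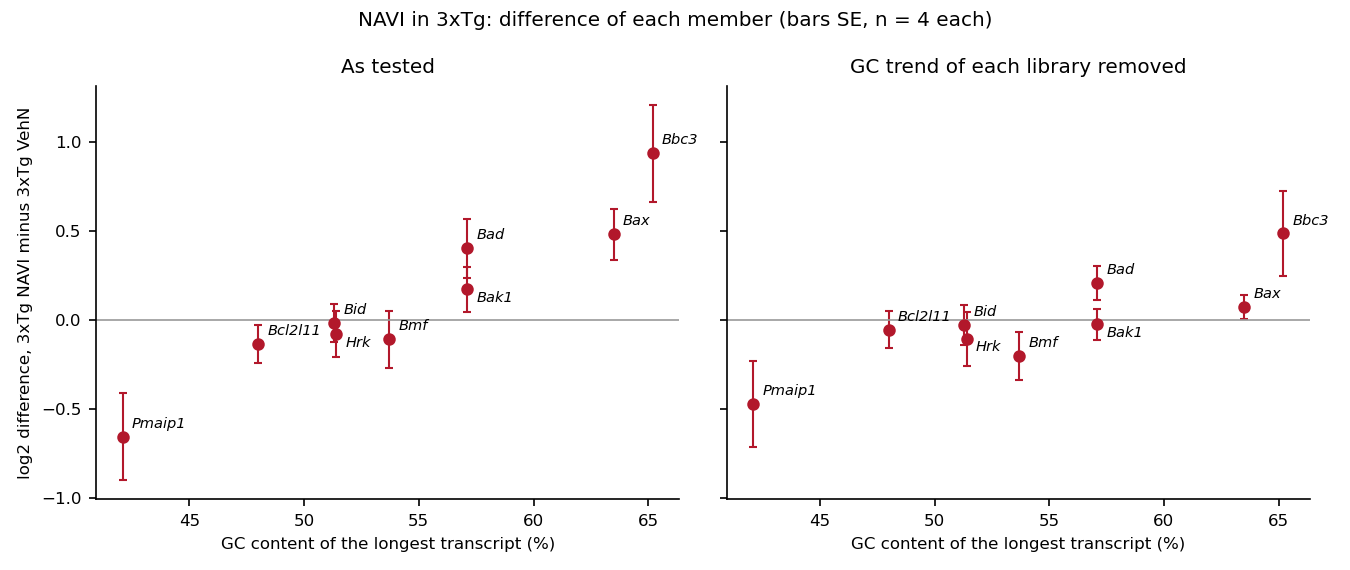
Log2 difference of each gene, 3xTg NAVI minus 3xTg VehN (vertical axis, SE bars, 4 libraries a group), against GC content of its longest transcript (horizontal axis), as tested (left) and after each library's GC trend was taken out (right). On the left the values run from -0.65 for Pmaip1 to 0.94 for Bbc3, and on the right Bax lies at 0.07.

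Whether NAVI acted differently in the 2 genotypes was tested as the NAVI effect in 3xTg minus that in WT. Here 1 of 9 members was called, Bax, against 8.13% of all genes. The NAVI effect on Bax was 0.48 in 3xTg and -0.23 in WT, where WT NAVI libraries had 17.9, 17.1, 15.2 and 15.9 CPM and WT Veh libraries 21.7, 15.3, 18.5 and 22.1 CPM. The difference of the effects was 0.71 (SE 0.202, edgeR adjusted p = 0.0431). Bad had the same difference of 0.71 (SE 0.235, adjusted p = 0.0564) and Bbc3 one of 0.99 (SE 0.382, adjusted p = 0.0811), and neither passed. With the GC trend removed Bax was at 0.06 (SE 0.0941, adjusted p = 0.839), and the number of genes called over the whole table was 0. The Bax call was also lost when any 1 of 9 libraries was left out: 3xTg NAVI replicate 3 or 4, 3xTg VehN replicate 2 or 3, WT NAVI replicate 2, 3 or 4, or WT Veh replicate 1 or 4 (adjusted p up to 0.125). Over all refits with 1 library left out the difference was between 0.62 and 0.83, and the refits that lost the Bax call made 0 or 1 calls over the whole table. Gpr137, whose exons overlap Bad and whose mean level was 42.2 CPM, had a difference of 0.66 (SE 0.243, adjusted p = 0.0726), close to that of Bad.

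**Figure D5:**
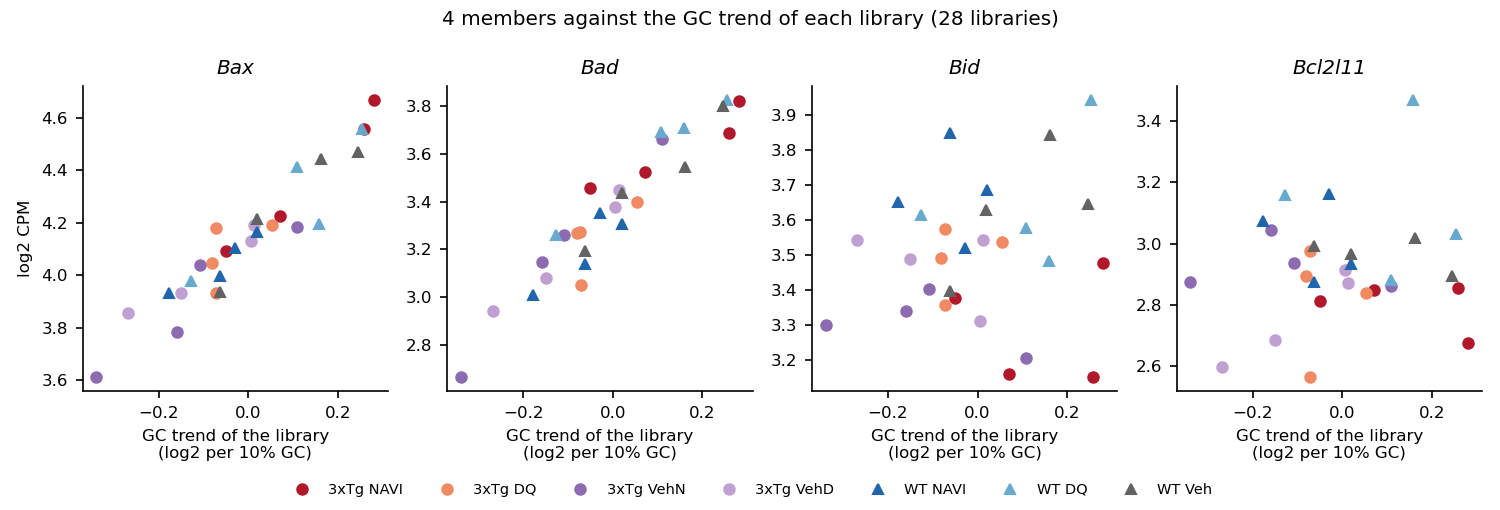
Log2 CPM of Bax, Bad, Bid and Bcl2l11 (vertical axes) against the GC trend of the library (horizontal axes, log2 units per 10% of GC), for the 28 libraries. Circles are 3xTg and triangles WT libraries, coloured by treatment. Bax and Bad rise along the GC trend (Pearson r = 0.948 and 0.951), while the 16 circles of Bid all lie below the WT median of 12.4 CPM at high and low trends.

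In WT mice, NAVI moved no member past the test. By edgeR, DESeq2 and limma-voom 0 of 9 were called against Veh, 0 had an unadjusted p under 0.05, and 0% of all genes passed. Bad was at -0.30 (SE 0.166, adjusted p = 0.614), Bax at -0.23, and the other 7 members lay between -0.05 and 0.05. NAVI in WT, DQ in WT and the genotype comparison with vehicle share the WT Veh libraries, so their values are not independent.

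DQ gave no call in either genotype. In 3xTg against VehD, 0 of 9 members passed by the 3 tools, 0 had an unadjusted p under 0.05, and 0% of all genes passed. Pmaip1 was the farthest from 0, with 1.97, 2.01, 1.63 and 2.12 CPM with DQ, against 3.61, 1.70, 2.23 and 3.50 CPM with VehD. These groups overlapped, and the log2 difference was -0.51 (SE 0.249, 95% interval -1.02 to 0.00192, edgeR unadjusted p = 0.0508, adjusted p = 1). In WT against Veh, 0 of 9 members passed by the 3 tools, 0 had an unadjusted p under 0.05, and 0.00611% of all genes passed. The largest difference among the members in WT was -0.22 (Pmaip1, SE 0.245), followed by 0.18 (Bcl2l11, SE 0.109). For the DQ effect in 3xTg minus that in WT, 0 of 9 members passed by the 3 tools, 0 had an unadjusted p under 0.05, and 0% of all genes passed.

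The drugs were also set against each other, and the vehicles likewise. NAVI against DQ in 3xTg called 0 of 9 members by the 3 tools, with 0% of all genes called. At an unadjusted p under 0.05 were 3 members, Hrk, Bad and Bax, and 14.5% of all genes. Hrk, which binds BCL-XL, had 79.1, 84.2, 83.9 and 92.5 CPM with NAVI, against 102, 103, 104 and 105 CPM with DQ. All 4 NAVI libraries lay below all 4 DQ libraries, at a log2 difference of -0.29 (SE 0.128, adjusted p = 0.336). Bax was at 0.31 (SE 0.143, adjusted p = 0.337). Bad, at 0.38 (SE 0.166, adjusted p = 0.336), and Bak1, at 0.22 (SE 0.128, unadjusted p = 0.0911, adjusted p = 0.381), did not overlap in the other direction. With each library's GC trend removed, Bad was at 0.18 and Bak1 at 0.03. With that and the replicate block, Bax was at 0.002 and Hrk at -0.35. Each of these values is the lowest of that gene over the alternatives. Over all genes, the differences of this comparison had a Spearman's rho of 0.54 with transcript GC content. Bak1 had 8.69, 8.14, 8.87 and 8.80 CPM with NAVI, against 7.39, 7.02, 7.76 and 7.36 CPM with DQ. Groups also did not overlap for Bad between genotypes with NAVI, for Hrk between genotypes with DQ, and for Bcl2l11 between NAVI and VehN in 3xTg. The share of all genes whose groups did not overlap is not given here, so a lack of overlap is only a description. NAVI against DQ in WT called 0 of 9 members by the 3 tools, with 0.0672% of all genes called and 1 member, Bad, and 9.84% of all genes at an unadjusted p under 0.05 (log2 difference of Bad -0.43, SE 0.166, adjusted p = 0.471). VehN against VehD in 3xTg called 0 of 9 members by the 3 tools, with 0 at an unadjusted p under 0.05 and 0% of all genes. Between these vehicles Pmaip1 was at 0.47 (SE 0.243), and at 0.20 without 3xTg VehN replicate 2, and Bbc3 at -0.34 (SE 0.274).

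The members' partners and regulators were described from 5 lists in the comparison of genotypes over all treatments, in which 14.4% of all genes were called. Among anti-apoptotic BCL-2 proteins, 2 of 7 tested genes were higher in 3xTg and 1 was lower, with a median log2 difference of 0.11 beside -0.00135 for all genes. Bcl2a1b was at 1.73 (SE 0.177, adjusted p = 1.46e-07) and Bcl2a1a at 1.41 (SE 0.275, adjusted p = 0.000819). These are near-identical copies that reads can be split between, so their separate values are uncertain. Bcl2l2, which encodes the navitoclax target BCL-W, was at -0.09 (SE 0.0198, adjusted p = 0.00214). Among other BCL-2 family members, 0 of 6 were higher and 1 was lower, Bnip3, at -0.24 (SE 0.0572, adjusted p = 0.0043), with a list median of -0.13.

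Downstream of BAX and BAK, 3 of 19 genes of the apoptosome, caspases and their inhibitors were lower in 3xTg and 0 were higher, with a median of -0.03. Dffa, the inhibitor of the caspase-activated DNase, was at -0.20 (SE 0.0375, adjusted p = 0.000456). Diablo, which antagonises inhibitors of apoptosis, was at -0.18 (SE 0.0575, adjusted p = 0.0364), and Cycs, cytochrome c, was at -0.165 (SE 0.0367, adjusted p = 0.0027), with group means of 83.0 to 91.2 CPM in 3xTg and 93.8 to 102.3 CPM in WT. Of p53 and its targets other than the members, 2 of 23 were higher and 0 lower, with a median of 0.01. Phlda3, an AKT repressor, was at 0.39 (SE 0.0885, adjusted p = 0.00308), and Rrm2b, a ribonucleotide reductase subunit, at 0.17 (SE 0.0526, adjusted p = 0.033). Of regulators of BH3-only genes and partners of their proteins, 1 of 22 was higher and 2 were lower, with a median of -0.03. Atf4, a transcription factor of the integrated stress response, was higher, at 0.255 (SE 0.051, adjusted p = 0.001), and Ywhaq, a 14-3-3 protein, at -0.18 (SE 0.0605, adjusted p = 0.0427) and Dynll2, the dynein light chain that binds BMF, at -0.10 (SE 0.0331, adjusted p = 0.0485) were lower.

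With NAVI in 3xTg, 0 of the 77 genes of these 5 lists passed by edgeR, while 23 had an unadjusted p under 0.05, against 29.1% of all genes. For the NAVI effect in 3xTg minus WT, where 8.13% of all genes were called, 3 of 23 genes of the p53 list were lower and 0 were higher, with a median of -0.18 beside -0.02 for all genes. They were Trp53inp1 at -0.82 (SE 0.194, adjusted p = 0.0427), Rrm2b at -0.44 (SE 0.134, adjusted p = 0.0468) and Mdm2, the p53 ubiquitin ligase, at -0.29 (SE 0.0819, adjusted p = 0.0427). Among regulators, 2 of 22 were higher, Chac1 at 1.55 (SE 0.304, adjusted p = 0.0427) and Ddit3, which encodes CHOP, at 0.43 (SE 0.132, adjusted p = 0.0478). Chac1 had means of 5.38 ± 1.52 CPM with NAVI and 3.56 ± 0.204 CPM with VehN in 3xTg, and of 2.75 ± 0.376 CPM with NAVI and 5.38 ± 2.03 CPM with Veh in WT (SD, n = 4 each). Htra2 was the 1 of 19 genes higher in the apoptosome list, at 0.61 (SE 0.162, adjusted p = 0.0427). After the GC trend was taken out, 0 genes of the table passed this test by edgeR.

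Across the 28 libraries, 117 relations of members with each other, with cell type scores and with the GC trend were computed. Bax and Bad followed the library's GC trend most closely, with Pearson's r of 0.948 and 0.951 and Spearman's rho of 0.946 and 0.933. Both permutation p-values were 1e-05, the smallest the permutations can give, and the adjusted p was 0.000234 for each. Without the 2 farthest libraries r was 0.928 for Bax and 0.935 for Bad, and within groups it was 0.921 and 0.938. Bak1 followed the trend with r = 0.754 (rho = 0.766, adjusted permutation p = 0.000234, 0.681 without the 2 farthest libraries and 0.761 within groups). Bbc3 had r = 0.547 (rho = 0.545, permutation p = 0.00259, adjusted p = 0.0166, 0.406 without the 2 farthest and 0.517 within groups). Hrk ran the other way, with r = -0.587 (rho = -0.613, permutation p = 0.00117, adjusted p = 0.0114, -0.599 without the 2 farthest and -0.645 within groups). Its r was also -0.584 with the endothelium score, -0.529 with the thalamus score and -0.518 with the oligodendrocyte score (adjusted permutation p = 0.0107, 0.0213 and 0.0262). With the scores of neurons and of hippocampal neurons the r of Hrk was 0.092 and 0.149. Bax and Bad had r = 0.918 with each other (rho = 0.938, adjusted permutation p = 0.000234, 0.887 without the 2 farthest and 0.894 within groups).

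Bid ran against glial marker scores, but mostly between groups. With the microglia score r was -0.590 (rho = -0.587, permutation p = 0.00095, adjusted p = 0.0111, -0.530 without the 2 farthest libraries), and within groups it was -0.183. With the astrocyte score r was -0.582 (rho = -0.616, permutation p = 0.00128, adjusted p = 0.0115, -0.630 without the 2 farthest), and within groups it was 0.055. Microglia markers summed to 534 to 776 CPM in the 3xTg groups and to 419 to 534 CPM in the WT groups. With the score of hippocampal neurons r was 0.553 (rho = 0.508, permutation p = 0.00246, adjusted p = 0.0166, 0.520 without the 2 farthest), and within groups it was 0.464. Whether cell makeup has a part in the lower Bid level was not tested. Bmf had r = 0.575 with the thalamus score (rho = 0.451, permutation p = 0.00162, adjusted p = 0.0118, 0.464 without the 2 farthest and 0.539 within groups), and the adjusted permutation p of that rho was 0.0648. The relation was not particular to thalamus. The r of Bmf was 0.580 with the astrocyte, 0.543 with the oligodendrocyte and 0.472 with the choroid plexus score. It was -0.542 with the score of hippocampal neurons and -0.531 with that of neurons. Pmaip1 had r = 0.568 with the endothelium score (rho = 0.508, permutation p = 0.00143, adjusted p = 0.0118, 0.550 without the 2 farthest and 0.435 within groups).

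The genes whose log2 CPM was most like that of a member over the 28 libraries were found for each of the 9. Bax was most like Akt1 (r = 0.968) and Edf1 (0.966), Bad most like Prdx5 (0.957) and Ndufa13 (0.949), and Bak1 most like Slc6a8 (0.906) and Paqr4 (0.902), all with transcripts of 56.4% to 60.4% GC. Hrk was most like Astn1 (0.876) and Dnal1 (0.862). For the other 5 members the highest r was between 0.759 and 0.819, with Mgme1 (0.762) and Suds3 (0.761) for Bid and Agpat9 (0.819) and Bmper (0.767) for Bcl2l11. The highest r of Bid with another member was 0.229.

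Promoter sequence was read because Bcl2l11 and Bbc3 are known FOXO targets and Bbc3 and Bax known p53 targets. RefSeq windows of 250 bases before to 50 bases after the start (GRCm38.p6) were matched for 8 members, with 14 windows. The FOXO motif TGTTTAC, on either strand, was in 3.65% of 32851 windows of all genes and in 2 of the 14 member windows. The p53 half-site was searched as the pattern RRRCWWGYYY (R for A or G, W for A or T, Y for C or T), which reads the same on either strand. It was in 8.36% of windows and in 2 of 14 member windows, of Bax and of Bmf, and the Bmf match is not printed. The matches do not overlap each other. Capitals mark the match, in the direction of the gene.
Bbc3: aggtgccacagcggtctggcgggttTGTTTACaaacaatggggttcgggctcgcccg
Bcl2l11: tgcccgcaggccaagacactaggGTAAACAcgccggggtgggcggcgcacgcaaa
Bax: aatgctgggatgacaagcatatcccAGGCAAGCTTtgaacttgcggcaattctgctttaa
These stretches are chr7:16310069-16310125 (plus strand) for Bbc3, chr2:128125788-128125842 (plus strand) for Bcl2l11 and chr7:45467065-45467124 (minus strand) for Bax. A match in a window is a description of the letters and not a bound site.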

How the data were processed

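Whole-number read counts per gene, not normalized, were deposited by the authors as 1 table of 28 libraries. Per the submitters' processing notes, STAR, Subread and featureCounts were used on mm10, with versions and strand setting not given in the sources used here. Genes were kept by edgeR's filterByExpr (7693 removed), scaled by TMM and fitted together over the 7 groups with edgeR 4.0.16 (quasi-likelihood test, R 4.3.3), with Benjamini-Hochberg adjustment over 16369 genes and calls at an adjusted p under 0.05. limma 3.58.1 (voom with quality weights, called limma-voom in the text) and DESeq2 1.42.0 were alternatives. Others were other scalings and filters, a replicate block, tissue marker scores as covariates and leaving out each library. Each library's GC trend was also removed, by a spline with 5 degrees of freedom. The fit was tested on simulated data. Positions and GC content come from GENCODE M21, with GC content for 15557 genes. Marker scores are mean centred log2 CPM. Correlations used 100000 permutations and adjustment over 117 relations.

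NAVI and DQ in 3xTg were set against VehN and VehD, paired by the last letter of the label. The named genes were all 9 members, and from each list those called with up to 3 others of smallest p, plus the 2 genes most like each member. Members, lists and tests were chosen with earlier results of these data known. Libraries of a group differed by more than sampling noise (lowest chi-square per degree of freedom 12.3).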

Additional observations from a re-analysis of the deposited data

Results flagged for a closer look

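Pmaip1 in WT DQ replicate 2 stood apart from its group, at 4.315 CPM, against 2.245 to 2.512 CPM in the other 3 libraries. The gap was 0.871 of the group's range, above the critical value of Dixon's test for 4 samples. Among 63 groups tested, chance flags about 1 in 20. Without that library the WT DQ group of Pmaip1 still lay above all 3xTg DQ libraries, and the genotype difference with DQ was -0.28, against -0.55 with it.

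The NAVI effect on Bax differed between genotypes by 0.7125 on the log2 scale (edgeR's test of the difference itself, adjusted p = 0.0431). With each library's GC trend removed the value was 0.06 (adjusted p = 0.839). What part the GC trend has in this difference was not tested further.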

How the results depend on the processing

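Each member was refitted in each of 13 comparisons under the alternatives, which gave 2617 values. In 171 of them the sign differed from the main value while neither was called, in 0 a called value changed sign, and 62 were called on one side only. Over all treatments, 2 members were called in the main fit, and the Bid and Bcl2l11 calls held in all 39 alternatives, with Pmaip1 as an additional call in 5.

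Counts of members called between genotypes with vehicle were 0 in the main fit, 2 with the replicate block (Bid and Bax), 1 with the GC trend removed (Bmf), 1 with both, 1 with VehN alone (Bid), and 0 to 2 with 1 library left out. With NAVI the count was 1, but 0 with the libraries of the comparison alone and 0 to 1 with 1 library left out, and with DQ it was 0, 1 with limma-voom and 0 to 1 with 1 library left out. For NAVI in 3xTg it was 0, but 1 with DESeq2, 1 with limma-voom, 3 with the replicate block (Bbc3, Bax and Bad), 2 with tissue scores as covariates, 2 with the mean of both vehicles, and 0 to 3 with 1 library left out. The 3 came without 3xTg VehN replicate 1, and Bax alone or with Bbc3 without 3xTg NAVI replicate 1 or 2. For the NAVI effect in 3xTg minus WT it was 1, but 2 with DESeq2, limma-voom, a mean of at least 50 counts or the replicate block (Bax and Bad), 0 with no low count filter, with the libraries of the comparison alone, with the GC trend removed and with that and the replicate block, 3 with tissue scores, and 0 to 3 with 1 library left out. The cause was not tested.

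Same-numbered libraries deviated together with correlations between -0.284 and 0.37, of either sign, so the numbers were not read as pairs. Values with the replicate block are given as alternatives, here and for Bax and Hrk in NAVI against DQ in 3xTg. Calls over the whole table also moved: NAVI in 3xTg had 0 calls by edgeR, 2000 by DESeq2, 826 by limma-voom, 2317 with the replicate block and 73 with the block and the GC trend removed. Leaving out 1 library left the other groups' spread to stand for it.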
